A study of Mus musculus with 9 samples.

Results

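The 31 genes described here form a list of p53 target genes, with Trp53, the gene for p53 itself, and its regulators Mdm2 and Mdm4 among them. They were found by gene symbol in the deposited count table, including a row that merges Sesn2 with the transcript AK155592, so all 31 were among its 30232 gene rows. All 31 also passed the filter on low counts, which kept 12645 genes for testing. Their transcripts were measured in 9 libraries of mouse embryonic stem cells, and the comparison asks whether the edited lines showed a damage response. The knockout group held 5 Gzf1-knockout libraries, of which replicates 1 and 2 were RGM cells sequenced in run2 and replicates 3, 4 and 5 were V6.5 cells sequenced in run1. The wild-type group held 4 libraries, of which replicates 1 and 2 were RGM cells of run2, replicate 3 was V6.5 of run1 and replicate 4 was a Cas9-GFP line of run1. V6.5 is a widely used mouse embryonic stem cell line. All cells were grown with serum and LIF on feeders, mouse embryonic fibroblasts stopped from dividing by irradiation, and the feeders were depleted before the cells were harvested. The labels do not say whether the knockout libraries come from 1 clone or several, nor whether libraries of a group are separate cultures, so the p-values rest on the variation from library to library, part or all of which may be technical.

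p53 is a transcription factor that is kept scarce by Mdm2, a ubiquitin ligase that marks it for destruction, and by Mdm4, which blocks its activation domain. DNA breaks, replication stress and other insults free p53 from Mdm2. The freed p53 binds a response element made of paired short sequences and activates genes that halt the cell cycle, trigger apoptosis, repair DNA and restrain growth. Mdm2 is itself such a gene, which closes a feedback loop. Mouse embryonic stem cells hold p53 at high levels, and in human pluripotent stem cells Cas9 cutting has been seen to activate p53 targets and to favour cells that have lost p53. p53 is controlled largely at the protein level, so the Trp53 transcript does not report its activity.

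Levels are given in CPM, counts scaled to library size and corrected by TMM (trimmed mean of M values). Library totals were 2568489 to 3704162 counts in run2 and 4872127 to 7072697 counts in run1, so a floor of 3 counts lay between 0.412 and 1.18 CPM, which covers counting error only. The libraries used 3' tags, which need not report an edit elsewhere in a gene. Gzf1, the targeted gene, was at 5.45, 14.2, 1.66, 9.40 and 5.24 CPM in knockout replicates 1 to 5, against 28.6, 30.0, 8.11 and 18.7 CPM in wild-type replicates 1 to 4. Every RGM knockout value was below every RGM wild-type value, whereas the run1 values of the genotypes overlapped. All 12 embryonic stem cell markers were tested, and their summed level was 6095 to 7873 CPM in knockout and 6446 to 7693 CPM in wild-type libraries. Single markers differed between the cell lines, as given with that comparison. Of 24 fibroblast marker rows none was at 0 in every library, Lum was at 0 in wild-type replicate 3, and the summed level was 1370 to 3557 CPM in knockout and 1342 to 3100 CPM in wild-type libraries.

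The response element is made of a pair of half-sites of 10 bases each, and the promoters of the members were searched for the p53 half-site consensus. The search window ran from 250 bases before to 50 after each RefSeq start, and the consensus reads the same on both strands. Of the 31 members, 23 had an entry in the RefSeq promoter table (GRCm38.p6), and 12 of these (52.2%) held a half-site, against 9.55% of all 27025 symbols in that table. Counted by window, the shares were 39.4% of 33 member windows and 8.36% of all 32851. A pair of half-sites at most 13 bases apart was found in 24 of all windows (0.0731%), and Cdkn1a was the 1 member with such a pair, 12 bases apart and 42 to 73 bases before its start. Trp53, Cdkn1a, Mdm2, Ccng1 and Bax, whose levels are given in every library, each held a half-site. That of Trp53 began 75 bases before its start and is not printed. The stretches around the half-sites of Cdkn1a, Mdm2, Ccng1 and Bax are printed 5′ to 3′ along the gene, with the matching half-sites in capitals.
Cdkn1a (chr17:29090881-29090962, plus strand): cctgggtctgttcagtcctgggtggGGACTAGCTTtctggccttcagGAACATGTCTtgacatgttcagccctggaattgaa
Mdm2 (chr10:117710910-117710969, minus strand): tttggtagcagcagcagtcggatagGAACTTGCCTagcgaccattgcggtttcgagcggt
Ccng1 (chr11:40755437-40755496, minus strand): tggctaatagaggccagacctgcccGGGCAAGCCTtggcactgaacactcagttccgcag
Bax (chr7:45467065-45467124, minus strand): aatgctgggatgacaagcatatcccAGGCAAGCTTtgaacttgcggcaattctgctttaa
The half-site began 186 bases before the start in Mdm2, 185 in Ccng1 and 201 in Bax. A match describes the letters of the window only, and binding was not measured. Only exact matches were marked, so half-sites with a mismatch were passed over. In Cdkn1a the 10 bases directly after the second marked half-site depart from the consensus at their first base only. The marked pair need not be the element that p53 binds.

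No member passed the test between knockout and wild-type cells. Across all 9 libraries, 0 of 31 members passed an adjusted p of 0.05 in edgeR's quasi-likelihood test with run as a term, where 0.0316% of all genes (4 of 12645, all lower) did. DESeq2 also called 0 members. At an unadjusted p under 0.05 the count was again 0 of 31, against 2.32% of all genes. The members' log2 fold changes lay between -0.29 (Aen) and 0.56 (Tap1), with 21 positive and 10 negative (67.7% positive, against 52.6% of all genes) and a median of 0.07, against 0.01 over all genes tested. Without knockout replicate 4 the median was -0.0014 and 15 of 31 were positive. No member had all knockout libraries above or all below the wild-type ones, which was the case for 0.198% and 0.245% of all genes. Of the fibroblast markers 0 of 23 passed in the same comparison, with a median log2 fold change of 0.14, and their part in the members' values was not tested.

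**Figure D1:**
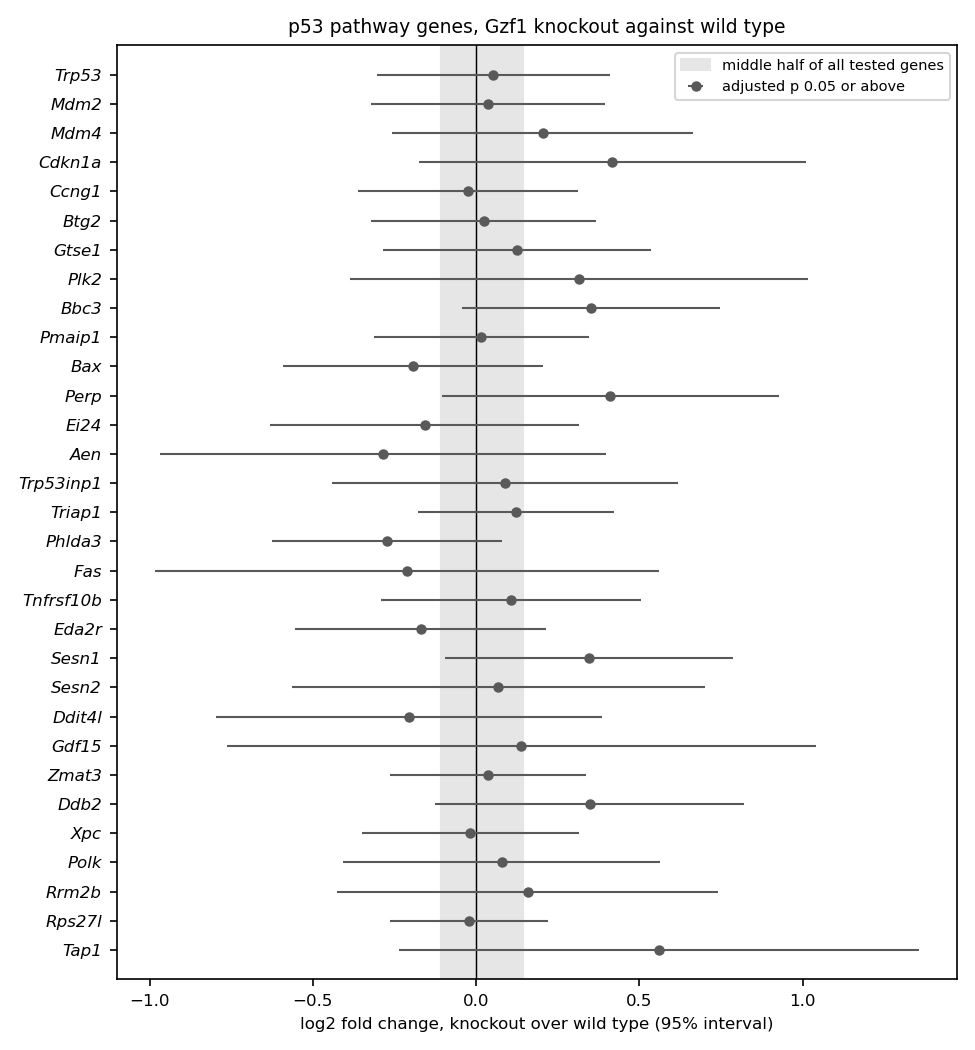
Log2 fold change of each of the 31 p53 target genes in Gzf1-knockout (n = 5) over wild-type (n = 4) libraries with run as a term; points are estimates and bars 95% intervals, and the shaded band spans the middle quartiles of all genes tested. The intervals of all 31 genes cross 0, and the estimates run from -0.29 for Aen to 0.56 for Tap1.

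The size of change that these libraries leave room for differed between members. The 95% interval of the log2 fold change was narrowest for Rps27l, a ribosomal protein S27-like gene, at -0.26 to 0.22, and widest for Gdf15, which encodes a secreted stress cytokine, at -0.76 to 1.04. For 27 of 31 members the interval stayed within 1 log2 unit of 0 on both sides.

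Among p53 and its regulators, Trp53 (chr11:69580359-69591873, plus strand, mm10) was at 328 and 365 CPM in the RGM knockout libraries and 216, 289 and 149.8 CPM in the V6.5 knockout libraries, against 282 and 293 CPM in the RGM wild-type libraries, 221 CPM in the V6.5 and 255 CPM in the Cas9-GFP wild-type library. The knockout libraries held both the highest and the lowest of the 9 values, and the wild-type values lay between them. The log2 fold change was 0.05 (SE 0.17, 95% interval -0.30 to 0.41). Mdm2 (chr10:117688875-117710758, minus strand) was at 206 and 216 CPM in the RGM knockout libraries and 153, 270.2 and 209 CPM in the V6.5 knockout libraries, against 173 and 242 CPM in the RGM wild-type libraries, 173 CPM in the V6.5 and 236 CPM in the Cas9-GFP wild-type library. Knockout replicate 4 was the highest library and knockout replicate 3 the lowest, and the groups overlapped over nearly the whole range, with a log2 fold change of 0.04 (SE 0.17, 95% interval -0.32 to 0.39). Mdm4 had a log2 fold change of 0.20 (SE 0.22).

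Of the 5 genes of cell cycle arrest and cycle control, 0 passed the test. Cdkn1a (chr17:29090976-29100727, plus strand) encodes p21, the inhibitor of cyclin-dependent kinases through which p53 halts the cycle. It was at 391 and 332 CPM in the RGM knockout libraries and 164, 327 and 502 CPM in the V6.5 knockout libraries, against 339 and 363 CPM in the RGM wild-type libraries, 188 CPM in the V6.5 and 211 CPM in the Cas9-GFP wild-type library. The RGM libraries of both genotypes were close together, and among the V6.5 knockout libraries replicate 5 was the highest of all 9 and replicate 3 the lowest of all 9. Cdkn1a averaged 343 ± 122 CPM in knockout and 275 ± 88.2 CPM in wild-type libraries (SD, n = 5 and 4), a log2 fold change of 0.42 (SE 0.27, 95% interval -0.18 to 1.01, unadjusted p = 0.15 and adjusted p = 0.9998 in edgeR). Without knockout replicate 5 it was 0.17.

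Ccng1 (chr11:40748552-40755311, minus strand) encodes cyclin G1, a target that feeds back on Mdm2. It was at 284 and 288 CPM in the RGM knockout libraries and 268, 485 and 328 CPM in the V6.5 knockout libraries, against 285 and 335 CPM in the RGM wild-type libraries, 318 CPM in the V6.5 and 379 CPM in the Cas9-GFP wild-type library. Knockout replicate 4 stood above all other libraries, and the remaining knockout values overlapped with the wild-type ones, giving a log2 fold change of -0.03 (SE 0.16, 95% interval -0.36 to 0.31). The log2 fold changes of Plk2, a polo-like kinase, Gtse1, which acts in G2 phase, and Btg2, an antiproliferative gene, were 0.31 (SE 0.32), 0.12 (SE 0.19) and 0.02 (SE 0.16).

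**Figure D2:**
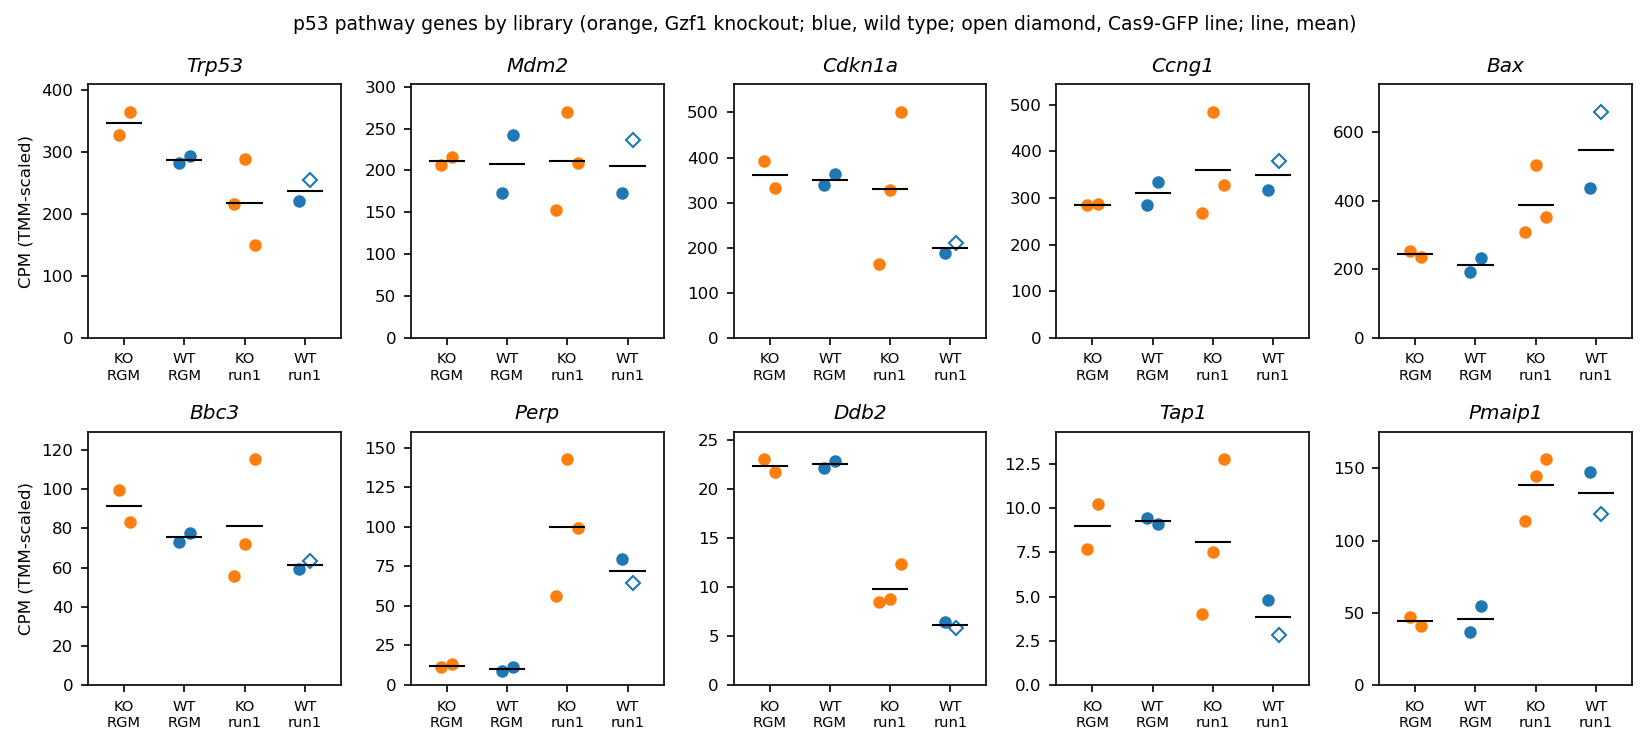
CPM of p53 pathway genes in each library, grouped by run and genotype (orange, Gzf1 knockout; blue, wild type; open diamond, the Cas9-GFP line; lines are group means; linear axes from 0). The genotypes overlap in run1 for Trp53, Mdm2, Cdkn1a and Ccng1, and Perp is lower in the RGM libraries than in run1 for both genotypes.

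Of the 9 genes of intrinsic apoptosis, 0 passed the test, 5 estimates were positive and 4 negative. Bax (chr7:45461697-45466898, minus strand) encodes the protein that opens the outer mitochondrial membrane. It was at 253 and 236 CPM in the RGM knockout libraries and 310.0, 505 and 353 CPM in the V6.5 knockout libraries, against 194 and 234 CPM in the RGM wild-type libraries, 438 CPM in the V6.5 and 661 CPM in the Cas9-GFP wild-type library. The highest library was the Cas9-GFP wild type and the lowest an RGM wild type, so the wild-type range enclosed all knockout values. The log2 fold change was -0.19 (SE 0.19), and 0.31 was its unadjusted p.

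Bbc3 encodes PUMA, a BH3-only protein that triggers the activity of Bax. It was at 99.6 and 83.3 CPM in the RGM knockout libraries and 55.9, 72.3 and 116 CPM in the V6.5 knockout libraries, against 73.1 and 77.8 CPM in the RGM wild-type libraries, 59.2 CPM in the V6.5 and 63.3 CPM in the Cas9-GFP wild-type library. In RGM cells both knockout values were above both wild-type values, while in run1 knockout replicate 3 was the lowest library. Its unadjusted p of 0.078 was the smallest of the 31 members, at a log2 fold change of 0.35 (SE 0.18) and an adjusted p of 0.9998 in edgeR.

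Perp, which encodes a membrane protein of p53-dependent apoptosis and of desmosomes, had a log2 fold change of 0.41 (SE 0.24, unadjusted p = 0.11 in edgeR). Its values in every library are given with the comparison of the cell lines. Pmaip1, which encodes the BH3-only protein NOXA, had one of 0.02 (SE 0.15). The other 5, Trp53inp1, Phlda3, Ei24, Aen and Triap1, had log2 fold changes between -0.29 and 0.12.

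The 3 death receptor genes were Fas, Tnfrsf10b (the mouse TRAIL receptor) and Eda2r (the receptor of ectodysplasin A2), with log2 fold changes of -0.21 (SE 0.36), 0.11 (SE 0.19) and -0.17 (SE 0.18). Of the 5 genes of metabolic and stress response, Sesn1, a sestrin that restrains mTORC1, had the largest, 0.35 (SE 0.21), and the RNA-binding gene Zmat3 had 0.04 (SE 0.14). The remaining 3, Sesn2, Ddit4l and Gdf15, lay between -0.21 and 0.14.

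Among the 4 genes of DNA repair and nucleotide supply, Ddb2 encodes a subunit that recognises ultraviolet damage. It was at 23.1 and 21.7 CPM in the RGM knockout libraries and 8.43, 8.77 and 12.3 CPM in the V6.5 knockout libraries, against 22.1 and 22.9 CPM in the RGM wild-type libraries, 6.46 CPM in the V6.5 and 5.84 CPM in the Cas9-GFP wild-type library. The RGM libraries of both genotypes lay together, and in run1 the 3 knockout libraries were above both wild-type ones. The log2 fold change over all libraries was 0.35 (SE 0.22). Acp2 lies over the 3′ end of Ddb2 on the opposite strand, and the treatment of strand in counting is not stated, so reads of these genes may not be separable. Xpc, Polk and Rrm2b had log2 fold changes between -0.02 and 0.16.

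Tap1, which encodes a subunit of the peptide transporter for MHC class I, had the largest estimate of the 31 members. It was at 7.69 and 10.3 CPM in the RGM knockout libraries and 4.01, 7.52 and 12.8 CPM in the V6.5 knockout libraries, against 9.44 and 9.08 CPM in the RGM wild-type libraries, 4.81 CPM in the V6.5 and 2.83 CPM in the Cas9-GFP wild-type library. Knockout replicate 5 was the highest library, and 3 of the 4 wild-type values lay within the knockout range. The log2 fold change was 0.56 (SE 0.37, unadjusted p = 0.15 in edgeR), and it was 0.25 without knockout replicate 5. Tap1 overlaps Psmb9 on the opposite strand.

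The genotypes were also compared within each run, where cell line and run are held constant except for the Cas9-GFP wild type. In RGM cells (2 against 2), 0 of 31 members passed, as did 0% of all genes, and 0 of 31 had an unadjusted p under 0.05, against 0.822% of all genes. For the contrasts within runs, each gene's spread was estimated from all 9 libraries. Libraries of 1 genotype had a lower chi-square per degree of freedom in run2 (2.63 and 3.31) than in run1 (14.9 to 26.0). The 14.9 compares the V6.5 with the Cas9-GFP wild type, and the V6.5 knockout pairs gave 23.6 to 26.0. This measure grows with library depth, which was greater in run1. Because the spread is shared, the SE and p-values in RGM cells carry run1 variation too. In a fit of run2 libraries alone, 9 genes and 0 members were called. Both knockout values were above both wild-type values for 11 members (35.5%, against 18% of all genes) and below them for 4 (12.9%, against 16.6%), and the median log2 fold change was 0.05, against 0.01 over all genes. Trp53 had 0.27 (SE 0.25), Cdkn1a 0.05 (SE 0.37) and Mdm2 0.03 (SE 0.26) on the log2 scale within RGM cells.

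In run1 (3 against 2), 0 of 31 members passed the adjusted threshold, against 0.0158% of all genes. Unadjusted p values were under 0.05 for 3 members, against 3.84% of all genes. These were Ddb2, with a positive log2 estimate of 0.67 (SE 0.29, unadjusted p = 0.038 in edgeR), Tap1, also with a positive estimate of 1.06 (SE 0.48, unadjusted p = 0.047 in edgeR), and Bax, with a negative one of -0.50 (SE 0.22, unadjusted p = 0.046 in edgeR), each with an adjusted p of 0.9995. Ddb2 was the 1 member with all run1 knockout libraries above both wild-type ones (6.42% of all genes), and Aen the 1 member with all below (7.1% of all genes). For Cdkn1a the run1 estimate was 0.73 (SE 0.34) on the log2 scale. Single libraries moved these run1 estimates. Cdkn1a was at 0.30 without knockout replicate 5 and 1.05 without knockout replicate 3, Tap1 at 0.55 without knockout replicate 5 and 1.51 without wild-type replicate 3, and Bax at -0.17 without wild-type replicate 4 and -0.76 without wild-type replicate 3.

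The difference of the knockout effect between run2 and run1 passed for 0 of 31 members and 0% of all genes, and at an unadjusted p under 0.05 for 0 of 31 members, against 1.44% of all genes. DESeq2 called 0 members in the RGM, run1 and difference contrasts. The smallest unadjusted p belonged to Bax (log2 difference 0.69, SE 0.34, unadjusted p = 0.063 in edgeR) and Aen (log2 difference 1.24, SE 0.61, unadjusted p = 0.064 in edgeR).

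The 3 V6.5 knockout libraries deviated from the wild type in different directions. Against the wild-type mean of their run on the log2(CPM + 1) scale, knockout replicate 5 deviated by more than 0.5 upward for 10 members (32.3%, against 16.3% of all genes) and downward for 3 (9.68%, against 14.0%). The 9 strongest upward deviations were 1.55 for Tap1, 1.33 for Cdkn1a, 1.11 for Gdf15, 0.99 for Mdm4, 0.91 for Bbc3, 0.90 for Ddb2, 0.89 for Plk2, 0.75 for Polk and 0.74 for Sesn1. In the same library Trp53 deviated by -0.66, Bax by -0.61 and Aen by -0.87, so that the transcript of p53 was at its lowest where Cdkn1a was at its highest. Gata6, a primitive endoderm marker chosen after its values were seen, was at 14.4 CPM in the same library, against 1.24 to 3.13 CPM in the other 4 knockout and 0.942 to 2.16 CPM in the wild-type libraries, and its part in the pattern was not tested. Of the other listed markers, most were above both run1 wild-type libraries in this library. Gata4 was at its highest, 5.41 CPM, and Sox17 (3.44 CPM), Dab2 (4.10 CPM) and Lamb1 (78.3 CPM) were above both. So were Col4a1, Col4a2, Pdgfra and Sparc. Sox7 (0.820 CPM) and Lama1 (11.8 CPM) were below both, and Foxa2 and Srgn lay between them. The summed level of the 13 listed markers was 866 CPM, against 892 and 896 CPM in knockout replicates 3 and 4. It was 819 and 689 CPM in wild-type replicates 3 and 4.

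Knockout replicate 4 deviated upward by more than 0.5 for 7 members (22.6%, against 10.4% of all genes) and knockout replicate 3 downward for 8 (25.8%, against 10.4%). Within run1, replicate 5 was the highest of the 5 libraries for 13 of 31 members (41.9%, against 26.0% of all genes), replicate 4 for 10 (32.3%, against 22.0%), and replicate 3 the lowest for 18, where 19.5% of all genes had their lowest value in it. The summed level of the 31 members was 3341, 5071 and 4599 CPM in knockout replicates 3, 4 and 5, against 4006 CPM in wild-type replicate 3 and 4668 CPM in wild-type replicate 4. In the same order the summed fibroblast markers were 2012, 1492 and 1370 CPM, against 1621 and 1342 CPM, and their part in the pattern was not tested.

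**Figure D3:**
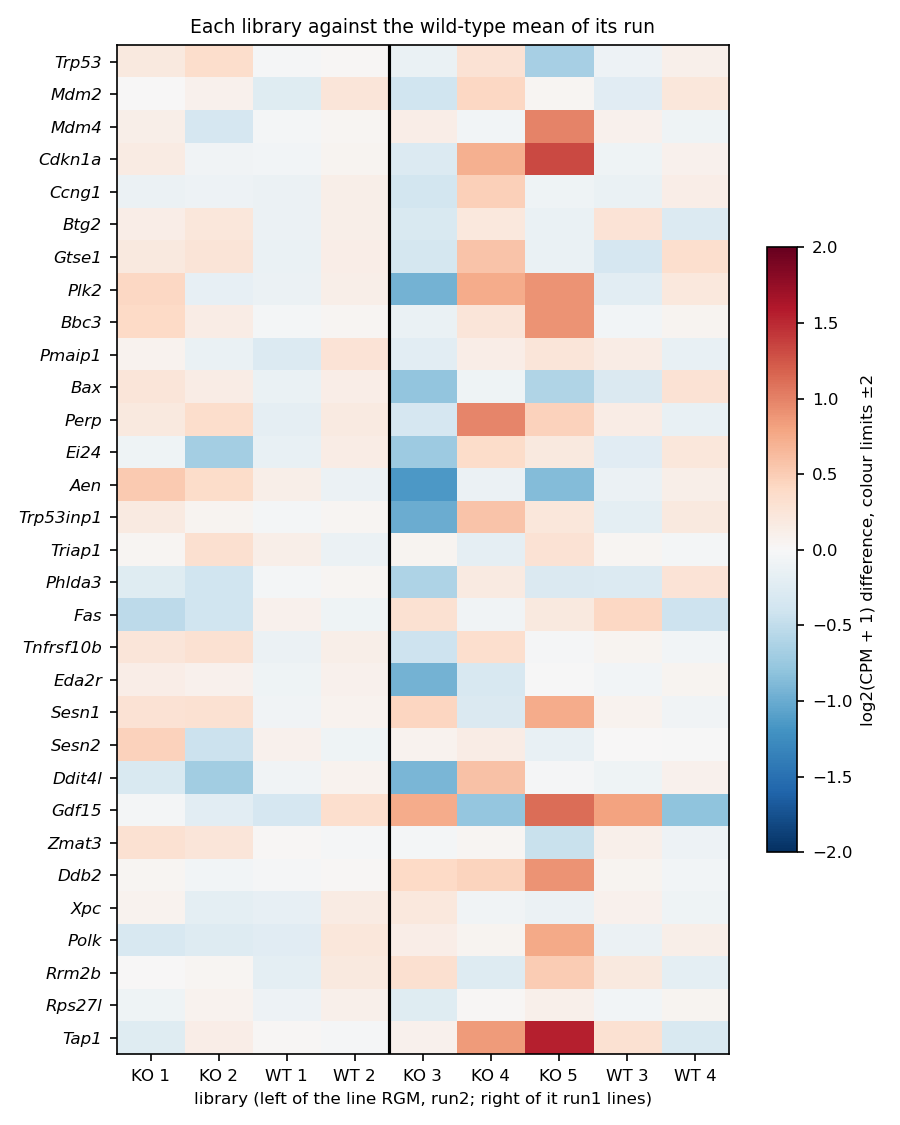
Deviation of each p53 target gene (rows) in each library (columns) from the wild-type mean of its run, as a difference of log2(CPM + 1); red is above and blue below. Knockout replicate 5 holds the strongest positive cells (Tap1 at 1.55, Cdkn1a at 1.33), and knockout replicate 3 is lowest in run1 for 18 of 31 genes.

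The members differed between the cell lines, at about the rate of all genes. RGM cells of run2 (4 libraries) and the run1 lines (5 libraries) were compared with genotype as a term, and 13 of 31 members (41.9%) passed, where 45.3% of all genes did. Of these, 4 were higher in RGM cells (12.9%, against 22.2% of all genes) and 9 lower (29.0%, against 23.1%). The median log2 fold change of the members was -0.33, against -0.02 over all genes tested, with 12 positive and 19 negative. Cell line and sequencing run coincide, so their effects cannot be told apart. The fibroblast markers moved with this contrast: 18 of 23 tested were higher in RGM libraries and 0 lower, with summed levels of 2388 to 3557 CPM in the 4 RGM libraries and 1342 to 2012 CPM in the 5 run1 libraries, and their part in the result was not tested. In bulk RNA, fewer cells of a type and less RNA per cell cannot be told apart. Of the 12 embryonic stem cell markers 2 were higher in RGM libraries and 3 lower (16.7% and 25%, against 22.2% and 23.1% of all genes). Zfp42 was at 318 to 396 CPM in RGM and 32.2 to 38.2 CPM in run1 libraries. Tdgf1 was at 512 to 598 CPM in RGM and 1313 to 2248 CPM in run1 libraries. The part of these markers in the result was not tested.

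**Figure D4:**
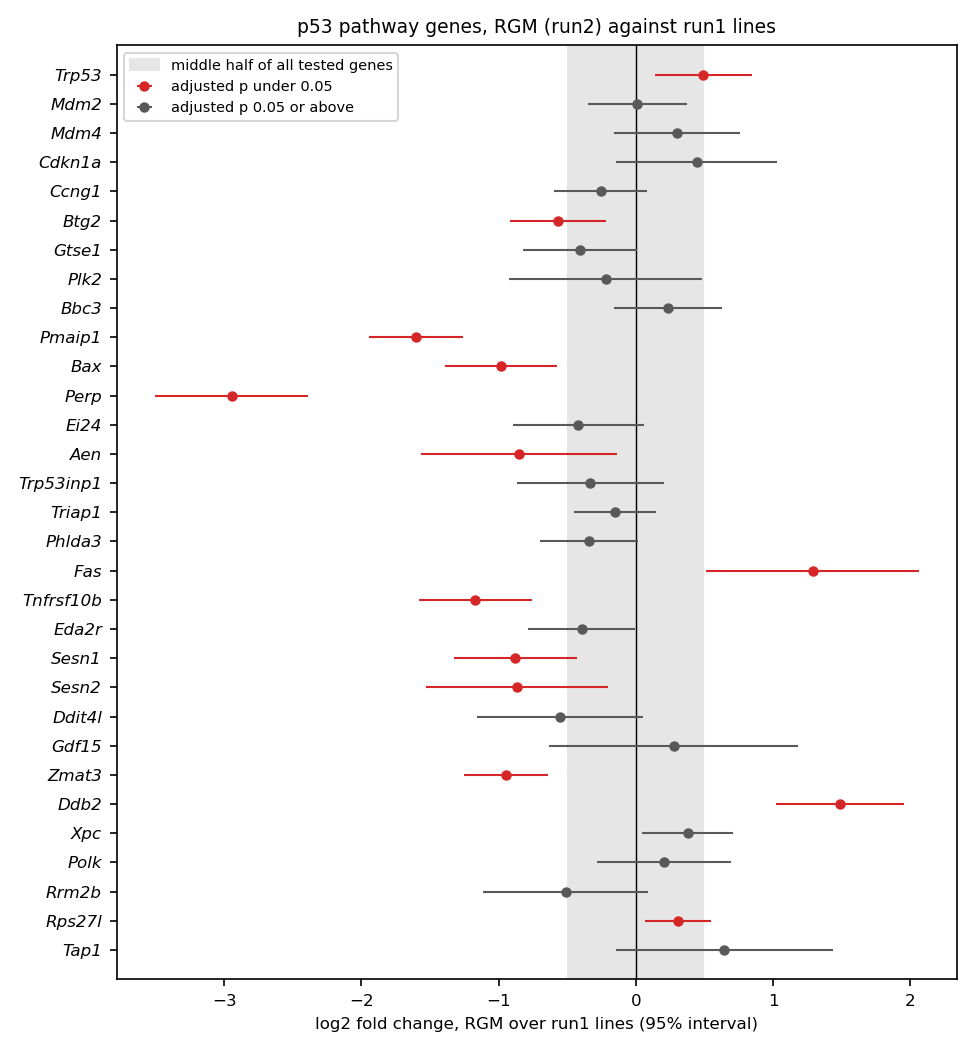
Log2 fold change of each p53 target gene in RGM (run2, n = 4) over run1 (n = 5) libraries with genotype as a term; points are estimates, bars 95% intervals, the shaded band spans the middle quartiles of all genes tested, and colour marks an adjusted p under 0.05. Perp, at -2.95, and Pmaip1, at -1.60, lie farthest below 0 and Ddb2, at 1.49, farthest above.

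Of the 9 intrinsic apoptosis genes 4 passed (Perp, Pmaip1, Bax and Aen), all lower, a called share close to the 45.3% of all genes, of which 23.1% were lower. Perp was at 11.5 and 13 CPM in RGM knockout and 8.63 and 11.4 CPM in RGM wild-type libraries, against 56.4, 143 and 99.5 CPM in run1 knockout and 79.5 and 64.6 CPM in run1 wild-type libraries. Every RGM value was below every run1 value, 7.71-fold lower in the fit (log2 fold change -2.95, SE 0.26, edgeR adjusted p = 2.2e-06). Pmaip1 was at 47.4 and 40.7 CPM in RGM knockout and 36.9 and 54.5 CPM in RGM wild-type libraries, against 114, 145 and 157 CPM in run1 knockout and 147 and 119 CPM in run1 wild-type libraries. It too did not overlap between the lines, with a log2 fold change of -1.60 (SE 0.16, edgeR adjusted p = 5.2e-06). For Bax, whose values are given above, the highest RGM library was at 253 CPM and the lowest run1 library at 310.0 CPM, with a log2 fold change of -0.98 (SE 0.19, edgeR adjusted p = 9.9e-04). Bbc3, the other BH3-only gene of the list, did not pass (log2 fold change 0.23, SE 0.18).

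The 2 death receptor genes that passed went in opposite directions. Tnfrsf10b was at 17.6 and 18.5 CPM in RGM knockout and 13.5 and 16.2 CPM in RGM wild-type libraries, against 27.8, 47.0 and 36.7 CPM in run1 knockout and 38.9 and 35.6 CPM in run1 wild-type libraries. All RGM values were below all run1 values (log2 fold change -1.17, SE 0.19, edgeR adjusted p = 2.6e-04). Fas, the receptor of Fas ligand, was at 3.52 and 3.95 CPM in RGM knockout and 5.93 and 5.13 CPM in RGM wild-type libraries, against 2.21, 1.46 and 1.97 CPM in run1 knockout and 2.47 and 0.942 CPM in run1 wild-type libraries. All RGM values were above all run1 values, on 5 to 18 counts in the run1 libraries and 10 to 22 counts in the RGM libraries. Fas passed the filter on low counts through the RGM libraries, where it was high, so no fold is given.

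Among the stress genes 3 of 5 were lower in RGM cells, where 23.1% of all genes were. Zmat3 was at 84.6 and 80.9 CPM in RGM knockout and 70.1 and 67.1 CPM in RGM wild-type libraries, against 150.1, 158 and 113 CPM in run1 knockout and 165 and 143 CPM in run1 wild-type libraries. Sesn1 was at 19.5 and 19.7 CPM in RGM knockout and 15.1 and 16.6 CPM in RGM wild-type libraries, against 38.7, 23.2 and 48.0 CPM in run1 knockout and 29.8 and 27.1 CPM in run1 wild-type libraries. Neither gene overlapped between the lines, and the log2 fold changes were -0.95 (SE 0.14, edgeR adjusted p = 1.4e-04) for Zmat3 and -0.88 (SE 0.21, edgeR adjusted p = 0.0037) for Sesn1. Sesn2, in its merged row, had -0.87 (SE 0.31, edgeR adjusted p = 0.034).

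Of the cycle genes only Btg2 passed, at 57.7 and 62.0 CPM in RGM knockout and 48.5 and 57.2 CPM in RGM wild-type libraries, against 68.6, 98.6 and 77.4 CPM in run1 knockout and 103 and 69.9 CPM in run1 wild-type libraries. The highest RGM value lay below the lowest run1 value (log2 fold change -0.57, SE 0.16, edgeR adjusted p = 0.011). Cdkn1a did not pass, with a log2 fold change of 0.44 (SE 0.27) and an adjusted p of 0.20 in edgeR. It averaged 356 ± 26.9 CPM in RGM and 279 ± 139.6 CPM in run1 libraries (SD, n = 4 and 5), and without knockout replicate 5 it passed at an adjusted p of 0.007.

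Higher in RGM cells were Ddb2, Fas, Trp53 and Rps27l. For Ddb2 the log2 fold change was 1.49 (SE 0.22, edgeR adjusted p = 1.1e-04), and its RGM libraries all lay above its run1 libraries. Trp53 had 0.49 (SE 0.17, edgeR adjusted p = 0.026), and its lines overlapped, since knockout replicate 4 of run1 at 289 CPM lay above wild-type replicate 1 of RGM at 282 CPM. Mdm2 had 0.01 (SE 0.17, 95% interval -0.35 to 0.37).

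Of the 13 calls, 9 held in all 9 fits that left out 1 library (Ddb2 and Fas higher, and Perp, Pmaip1, Bax, Tnfrsf10b, Zmat3, Sesn1 and Btg2 lower). The call of Fas keeps its limit in these fits, since Fas passed the filter through the RGM libraries. Trp53 held in 5 of the 9 fits, Sesn2 in 4, Aen in 3 and Rps27l in 2. Trp53 was lost without wild-type replicate 3 or any 1 of knockout replicates 1, 2 and 3, at adjusted p of 0.051 to 0.096, and Sesn2 without any 1 wild-type library or without knockout replicate 2, at 0.057 to 0.13. Aen was lost without any 1 wild-type library or without knockout replicate 2 or 4, at 0.07 to 0.16, and Rps27l without any library except knockout replicates 4 and 5, at 0.053 to 0.12. Another 11 members passed in 1 such fit each. Without knockout replicate 5 these were Cdkn1a, Mdm4, Tap1 and Bbc3, and without knockout replicate 3 they were Trp53inp1, Phlda3, Eda2r, Ei24, Gtse1, Ddit4l and Xpc. In wild-type libraries alone 8 members passed (24.4% of all genes did), and in knockout libraries alone 7 (25%).

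The median log2 fold change of knockout over wild type was 0.01 in the 12 members with a half-site in the searched window and 0.12 in the 11 without, a difference that was not tested. Between the lines 5 of the 12 and 3 of the 11 passed, where 45.3% of all genes did. The members lay on 18 chromosomes of mm10, and 11 overlapped another annotated gene (GENCODE M21).

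Other genes of the pathway were read from lists of further p53 targets, p53 regulators and genes that p21 represses through the DREAM complex. Between knockout and wild type, 0 of 27 other targets, 0 of 20 regulators and 0 of 16 DREAM targets passed, with median log2 fold changes of -0.00, 0.03 and 0.01 (0.0316% of all genes passed, with a median of 0.01). At an unadjusted p under 0.05 there were 1, 0 and 0. Between RGM and run1 cells, 6 of the 27 other targets were higher and 5 lower. These shares (22.2% and 18.5%) lay near those of all genes in the same comparison, 22.2% higher and 23.1% lower. Zfp365 was lower (log2 fold change -1.79, SE 0.25), and Tigar (0.82, SE 0.20) and Gadd45a (0.71, SE 0.20) were higher. The call of Dram1, an autophagy regulator, rested on 7, 6, 9 and 9 counts in the RGM libraries, against 1 to 5 counts in each run1 library, so it passed the filter through the RGM libraries and no fold is given. Of the 20 regulators 2 were higher and 7 lower (10% and 35%; 45% called in all, against 45.3% of all genes). They included the ribosomal protein gene Rpl11 (-1.94, SE 0.19), whose protein binds Mdm2, the ubiquitin ligases Huwe1 (-1.25, SE 0.16) and Rchy1 (-0.83, SE 0.19), and Trp53bp1, which was higher (1.02, SE 0.19). Of the 16 DREAM targets 5 were higher and 3 lower (50% called in all, against the same 45.3%). The log2 fold changes were 0.72 (SE 0.15) for Bub1, 0.49 (SE 0.12) for Ccnb1, 0.58 (SE 0.15) for Cdc20 and -0.58 (SE 0.12) for Plk1, whose row is merged with Dctn5 and counts both. The adjusted p of these 12 genes lay between 4.5e-06 and 0.0097 in edgeR.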

How the data were processed

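The data were poly(A)+ 3'-tag libraries made with MARS-seq2.0. The authors deposited raw counts per gene symbol in a table of 30324 rows, of which 92 were spike-in rows, left out because they held 1 count in total. The submitters' processing notes name STAR, DESeq2 and mm10. Not given in the sources used here are the counter, the annotation, how strand was treated and whether molecular identifiers or reads were tallied.

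Groups, cell lines and runs came from the labels. The low-count filter was filterByExpr by genotype with a minimum count of 10. Tests used edgeR 4.0.16 in R 4.3.3 (TMM scaling, robust quasi-likelihood fit), with genotype and run in the model of all libraries and with 4 groups of genotype and run for contrasts within runs. The p-values were adjusted by Benjamini-Hochberg over all 12645 genes, with a threshold of 0.05. SE was obtained from the F statistic, as log2 fold change over its root. Alternatives were DESeq2 1.42.0, its size factors, no filter, no run term, a replicate block, single runs or genotypes, and leaving out each library. Scripts were tested on simulated data. No pair of libraries of 1 genotype and run agreed within sampling noise (chi-square per degree of freedom 2.63 to 26.0).

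The members and lists were chosen with earlier results of these data known. Values in every library were given for Trp53, Cdkn1a, Mdm2, Ccng1 and Bax, the 5 members with the largest knockout estimates and the 10 smallest adjusted p among those that passed between the lines. From other lists up to 4 passing genes were named. Positions are from GENCODE M21 (mm10), and promoters from RefSeq (GRCm38.p6).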

Additional observations from a re-analysis of the deposited data

Results flagged for a closer look

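In 5 of the 62 groups of 4 or 5 libraries checked (8.06%; chance flags about 1 in 20 groups), 1 library stood far from the rest of its genotype. Ccng1 was at 485 CPM in knockout replicate 4, against 268 to 328 CPM in the other knockout libraries. Gtse1 was at 387 CPM in knockout replicate 4, against 203 to 236 CPM. Aen was at 11.7 CPM in knockout replicate 4, against 5.25 to 6.73 CPM. Polk was at 25.6 CPM in knockout replicate 5, against 15.5 to 18.2 CPM. Phlda3 was at 218 CPM in wild-type replicate 4, the Cas9-GFP line, against 146 to 154 CPM in the other wild-type libraries. These groups pool both runs, and replicate 4 of the other genotype was high too in 4 of the 5. Phlda3 was at 205 CPM in knockout replicate 4. Ccng1, Gtse1 and Aen were at 379, 329 and 13.9 CPM in wild-type replicate 4, the highest wild-type values.

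The knockout estimates had opposite signs in the runs for 17 of 31 members. For 4 of these no library departed from the pattern: every knockout library lay on one side of the wild-type mean of its run in run2 and on the other side in run1. The log2 differences of the effect, run2 minus run1, were 0.69 for Bax (unadjusted p = 0.063 in edgeR), 0.49 for Eda2r (unadjusted p = 0.196 in edgeR), 1.24 for Aen (unadjusted p = 0.064 in edgeR) and -0.68 for Polk (unadjusted p = 0.144 in edgeR). None passed the adjusted threshold, so a difference between the runs was not shown. The share of all genes with opposite signs is not given here, so neither count sets the members apart from other genes.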

How the results depend on the processing

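The count of members called between genotypes stayed at 0 in every alternative run for every genotype contrast. The count of all genes called moved. It was 4 over all libraries and became 7 with DESeq2, 35 with no low-count filter, 2 with no run term and 2 to 4 with 1 library left out. Within run2 it was 0 and became 2 with DESeq2, 7 with no filter, 9 in run2 libraries alone and 0 to 1 with 1 library left out. Within run1 it was 2 and became 4 with DESeq2, 46 with no filter, 1 in run1 libraries alone and 0 to 8 with 1 library left out. For the difference between runs it was 0 and became 1 with no filter. Shared replicate numbers were not taken as pairs, since not every correlation of deviations exceeded 0.1. In run1 they were 0.30 for replicate 3 and 0.35 for replicate 4, and knockout and wild-type replicate 4 correlated at 0.981, against 0.953 and 0.944 for knockout replicate 4 with the other V6.5 knockout libraries. In run2 both were -0.08, 1 value that centring 2 against 2 gives for both. A replicate block called 6 genes and 0 members over all libraries, and 5 genes and 0 members in run2 libraries alone. It was not fitted in run1 libraries alone, where the replicate numbers did correlate. Between the lines, members called were 13, 12 with DESeq2, 19 with no filter, 9 to 18 with 1 library left out, 8 in wild-type and 7 in knockout libraries only. All genes called were 5732, with 3081 in wild-type and 3160 in knockout libraries only.

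Over all libraries Ccng1 was 0.0056 with no run term, and under the replicate block Mdm4 was -0.026, Trp53inp1 -0.045, Pmaip1 -0.035, Polk -0.077, Xpc 0.016 and Gdf15 -0.072. With no filter Mdm2 was -0.0014 within run2 and -0.031 between the lines, and Polk was -0.11 between the lines in knockout libraries only. With 1 library left out, the log2 fold changes over all libraries spanned Mdm2 -0.076 to 0.14, Pmaip1 -0.066 to 0.12, Btg2 -0.068 to 0.20, Ccng1 -0.17 to 0.054, Zmat3 -0.010 to 0.13, Rps27l -0.061 to 0.026, Xpc -0.083 to 0.047, Polk -0.090 to 0.22, Bax -0.31 to 0.030, Gdf15 -0.20 to 0.49, Sesn2 -0.10 to 0.19, Trp53 -0.056 to 0.18, Trp53inp1 -0.080 to 0.27, Tnfrsf10b -0.0014 to 0.22, Gtse1 -0.034 to 0.31 and Mdm4 -0.022 to 0.33. Counting all 31 members, estimates of both signs occurred across these fits for 16 members over all libraries, 12 within run2, 18 within run1 and 17 for the difference between runs. The widest such spans were -0.61 to 0.57 for Sesn2 within run2, and -0.24 to 1.49 within run1 and -1.65 to 0.09 for the difference, both of Gdf15. Of the members followed in every fit, those within run2 were Cdkn1a -0.078 to 0.16 and Mdm2 -0.20 to 0.28, and those within run1 Mdm2 -0.18 to 0.28, Ccng1 -0.23 to 0.22 and Trp53 -0.38 to 0.091. Between the lines 1 member turned, Mdm2 -0.088 to 0.11. The cause of these changes was not tested.

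With 2 libraries a genotype in RGM cells and 3 against 2 in run1, and unequal V6.5 knockout libraries, the 95% intervals over all libraries leave room for changes, within 1 log2 unit in 27 of 31 members. Run and cell line cannot be told apart, and the labels give no clone.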

Other observations

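Genes of the 2-cell-like state, a rare state of embryonic stem cell cultures in which p53 can activate Dux, were near the floor. Of 17 listed genes 14 had a row, 5 of these were at 0 in every library and none passed the filter on low counts. Their summed level was 1.92, 2.37, 2.07, 9.40 and 1.80 CPM in knockout replicates 1 to 5, against 1.35, 1.58, 1.51 and 9.05 CPM in wild-type replicates 1 to 4. The high value in each genotype belonged to replicate 4 of run1, the V6.5 knockout and the Cas9-GFP wild type.

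Of the markers of primitive endoderm, a lineage that appears in embryonic stem cell cultures, 0 of 9 tested passed between genotypes over all libraries. Within run1 0 of the 9 passed, and 3 had an unadjusted p under 0.05 in edgeR, against 3.84% of all genes. The median log2 fold change within run1 was 0.30 (7 positive and 2 negative), against 0.02 over all genes. Between the lines 4 of the 9 were higher in RGM cells (22.2% of all genes were) and 0 lower. The summed level of all 13 listed markers, tested or not, was 841 to 1063 CPM in knockout and 689 to 948 CPM in wild-type libraries. Sparc alone was 605 to 766 CPM of this in knockout and 529 to 682 CPM in wild-type libraries. Gata6 stood apart in knockout replicate 5, at the value given with the members of that library.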
